A study of Mus musculus with 6 samples.

Results

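Leukocyte integrins are adhesion receptors of blood cells, and 8 of their subunit genes were followed here in pancreatic acinar cell samples. The genes were chosen by name from the 23462 genes to which the array's probes could be assigned: the alpha subunits Itgal, Itgam, Itgax, Itgad, Itgae and Itga4, and the beta subunits Itgb2 and Itgb7. They were read by 13 of the 56605 probes. The samples were isolated acinar cells, the enzyme-secreting cells of the exocrine pancreas, from C57BL/6 mice. All 6 samples carried Ptf1aCre, a Cre recombinase expressed from the locus of the pancreatic lineage factor Ptf1a, and a further allele that Cre switches on. The 3 KC samples had these alleles alone, and the 3 KCS samples also carried Setdb1flox/flox, in which Cre removes part of the histone methyltransferase gene Setdb1. RNA was hybridised on 1-colour Agilent arrays, 1 array a sample. The labels do not say whether samples of a group came from separate animals, so p-values measure the spread between these samples, which may be technical.

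An integrin is a pair of an alpha and a beta chain that spans the membrane. The chains of Itgal, Itgam, Itgax and Itgad each pair with that of Itgb2 to form the beta2 integrins (LFA-1, Mac-1, CD11c/CD18 and CD11d/CD18), which hold leukocytes to vessel walls and take part in phagocytosis. The chain of Itga4 pairs with that of Itgb1 or Itgb7, and the chain of Itgae with that of Itgb7. On resting leukocytes these receptors are mostly bent and inactive, and signals from other receptors switch them on through talin and kindlin at the tail of the beta chain. Resting acinar cells attach through other integrins.

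The value used was the log2 of the scanner's processed signal minus the 75th percentile of that array, so that 0 marks a probe at the 75th percentile. A probe that the scanner software does not mark as well above background is called dim on that array. This scaling bears on every value below, because in scanner units the 75th percentile lay between 61.2 and 68.6 in KC and between 347 and 423 in KCS. The 100 brightest probes took 34.4 to 37.4% of the signal in KC and 13.4 to 14.6% in KCS. The spike-in controls had a median log2 signal of 9.72 to 10.06 in KC and 9.46 to 9.71 in KCS, and scaling to them moved the median log2 fold change of all 27102 tested rows from -0.19 to 2.69. Median centring moved it to 0.16 and quantile normalization to -0.01. Fold changes below are thus set against that percentile, and directions that turn with the scaling are named. A background correction called normexp was also run, with an offset of 50 added to every signal. The KC 75th percentile was little above that offset, so log2 differences of probes with low KC signals are narrowed by it. The KC and KCS samples of replicate 1 were on 1 slide and the other 4 on a second slide, so both slides held both groups. Setdb1 itself, read by 1 probe, differed by 0.33 ± 0.24 (SE) on the log2 scale, with an adjusted p of 0.27 in limma. Where that probe lies relative to the deleted part is not known, so it does not check the labels.

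The label of the cells was set against 11 acinar genes. All 11 were lower in KCS, with a median log2 fold change of -9.88, and the carboxypeptidase gene Cpa1, a defining acinar product, changed by -9.88 ± 2.32 (SE), adjusted p = 0.0104 in limma. The summed level of the list was 24608 to 29837 times the 75th percentile in KC. It was 3.71, 17.2 and 1825 times in KCS replicates 1, 2 and 3, so the KCS arrays differed widely from one another and the acinar transcripts were nearly gone from 2 of the 3. Without KCS replicate 2, 7 of the 11 were called lower.

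Of the 8 leukocyte integrin genes, 7 had a probe well above background on at least 3 arrays and were tested. Adjusted p-values are those of limma over all 27102 rows, with a threshold of 0.05. Itgal, Itgax, Itgae, Itga4 and Itgb2 were higher in KCS, 5 of the 7, where 25.9% of all tested rows were higher. Itgb7 was lower by its brighter probe, where 34.4% of all rows were lower. The 6 calls stand beside 60.3% of all rows called in either direction. Those 5 genes lay above KC with no overlap of the groups, as did 29.8% of all rows, and Itgb7 lay below, as did 38.4%, for 68.2% of rows with no overlap either way. Itgam did not pass the test, and Itgad stayed near background. The median log2 fold change of the 7 was 3.49, beside -0.19 over all rows. It was 6.37 under the spike-in scaling and 0.58 with normexp, beside 2.69 and -0.61 over all rows. Under the spike-in scaling all 7 were higher, including Itgam and Itgb7, where 87.2% of all rows were higher and 2.91% lower. Under median centring 5 genes were higher and 0 lower, where 33.8% of all rows were higher and 26% lower. With the normexp background correction 3 were higher and 0 lower, beside 25% and 55% of all rows. These are bulk samples, in which fewer cells of a type and less RNA per cell cannot be told apart.

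**Figure D1:**
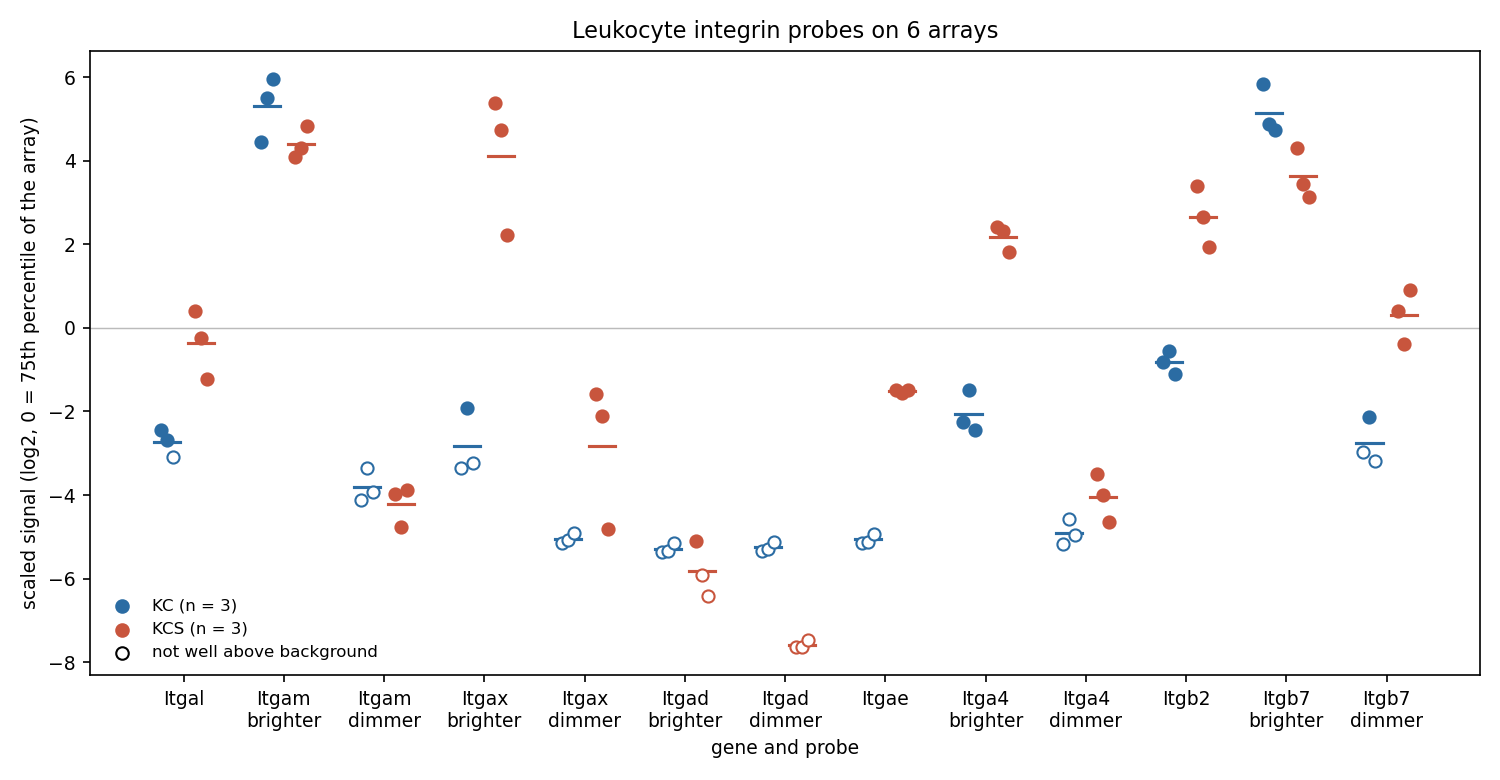
Scaled signal (log2, with 0 at the array's 75th percentile) of each of the 13 probes on the 3 KC and 3 KCS arrays. Points are arrays in the order of replicates 1 to 3, bars are group means, and open points are not well above background. The KCS points lie above the KC points for Itgal, Itgax, Itgae, Itgb2, the brighter Itga4 probe and the dimmer Itgb7 probe, and below them for the brighter Itgb7 probe, which turned higher under the spike-in scaling, and for an Itgad probe that was dim on all 6 arrays.

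Itgb2 encodes CD18, the beta chain that the 4 CD11 alpha chains share. Its single probe read -0.81, -0.56 and -1.10 in KC replicates 1 to 3 and 3.40, 2.65 and 1.94 in KCS replicates 1 to 3. All KCS arrays lay above all KC arrays, with a gap of 2.51 between the nearest arrays of the groups. In scanner units the probe rose from 28.5 to 46.4 in KC to between 1334 and 4132 in KCS. The log2 fold change was 3.49 ± 0.38 (SE), adjusted p = 0.00052 in limma. A change at least as large was seen in 3.35% of all rows. It was 4.21 on the first slide and 3.13 on the second, and with the slide as a block the adjusted p was 0.000648.

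Itgal encodes CD11a, the alpha chain of LFA-1, which lymphocytes and other leukocytes use to bind ICAM-1. It read -2.45, -2.67 and -3.08 in KC and 0.40, -0.24 and -1.23 in KCS, and was well above background on 2 of the 3 KC arrays. The groups did not overlap, and the lowest KCS array was replicate 3. The log2 fold change was 2.37 ± 0.43 (SE), adjusted p = 0.00351 in limma. It was 2.84 on the first slide and 2.14 on the second. With the normexp background correction it was 0.58 with an adjusted p of 0.111, a change that did not pass the test.

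Itgax encodes CD11c, the alpha chain used to mark dendritic cells and found on tissue macrophages as well. It had the largest fitted change of the 7 tested genes. The brighter of its 2 probes read -3.36, -1.92 and -3.22 in KC, where 1 of the 3 arrays was well above background, and 5.39, 4.74 and 2.23 in KCS. In scanner units these were 6.46 to 18.2 in KC and 16472, 11313 and 1623 in KCS replicates 1 to 3. KCS replicate 3 was thus far below the other KCS arrays, yet still 4.14 log2 units above the highest KC array. The log2 fold change was 6.95 ± 0.86 (SE), adjusted p = 0.000775 in limma, and 38 of the 27102 rows (0.14%) had a change at least as large. It was 8.76 on the first slide and 6.05 on the second.

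The dimmer Itgax probe was dim on all 3 KC arrays. It read -5.14, -5.08 and -4.91 in KC and -1.57, -2.11 and -4.82 in KCS, so replicate 3 was only just above KC. Its KCS level was higher by a factor of at least 1.15, with an adjusted p of 0.0515 when every probe was tested on its own. A bound of this kind was set throughout where a probe was dim on every array of a group. It is the ratio of the brighter group's mean to the dimmer group's mean, in which each array counts at its lowest signal among probes well above background, or at the probe's own signal where that is higher. An adjusted p printed beside a bound belongs to the fitted log2 difference and not to the bound.

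Itgam encodes CD11b, the alpha chain of Mac-1 on macrophages, monocytes and neutrophils. The brighter of its 2 probes was bright in both groups. It read 4.45, 5.50 and 5.95 in KC and 4.08, 4.30 and 4.84 in KCS. The groups overlapped, since KCS replicate 3 lay above KC replicate 1. The log2 difference was -0.90 ± 0.42 (SE), adjusted p = 0.108 in limma, and it turned to 1.98 under the spike-in scaling (adjusted p = 0.000508). With the slide as a block, the difference of -0.90 passed the test, with an adjusted p of 0.0345, where 36.7% of all rows were lower and 26.8% higher. It also passed without KC replicate 1, with an adjusted p of 0.0148. It was -0.37 on the first slide and -1.16 on the second. In scanner units the brighter probe was higher in KCS, at 6627 to 9909, than in KC, at 1454 to 3788.

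The dimmer Itgam probe was at -4.12, -3.35 and -3.93 in KC, where no array was well above background, and at -3.98, -4.76 and -3.89 in KCS, where all 3 were. Its scaled difference of -0.41 gives no fold. Tested on its own, it had an adjusted p of 0.308. Its KCS values lay below the lowest signal that was well above background on the KC arrays (-3.09 to -2.92), so on this scale the probe could not show a higher level in KCS.

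Itgad encodes CD11d, an alpha chain of macrophages in the spleen and of some other tissue leukocytes. Neither of its 2 probes passed the filter, so it was not tested. The brighter one was well above background on 1 array, KCS replicate 1, at 11.4 scanner units against 1.61 to 1.72 in KC. The other was not well above background on any of the 6 arrays, at 1.66 to 1.75 scanner units in KC and 1.94 to 2.13 in KCS. No fold is given for either.

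Itgal, Itgam, Itgax and Itgad lie on chromosome 7 in the GRCm38.p6 annotation. Itgam and Itgax are neighbours with 0 protein-coding genes between them, as are Itgax and Itgad, while 35 protein-coding genes lie between Itgal and Itgam. By their brighter probes, the neighbours Itgam and Itgax changed by -0.90, which did not pass the test, and 6.95, while Itgad stayed near background. Under the spike-in scaling Itgam and Itgax changed by 1.98 and 9.83. Their dimmer probes gave -0.41 and 2.21. Itga4 is on chromosome 2, Itgb2 on chromosome 10, Itgae on chromosome 11 and Itgb7 on chromosome 15.

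Itga4 encodes CD49d, the alpha chain of VLA-4 with Itgb1 and of the gut-homing receptor with Itgb7. Its brighter probe read -2.25, -1.49 and -2.44 in KC and 2.40, 2.31 and 1.82 in KCS. All 6 arrays were well above background, and the KCS arrays lay close together. The log2 fold change was 4.23 ± 0.31 (SE), adjusted p = 0.000156 in limma. It was 4.65 on the first slide and 4.02 on the second. The partner Itgb1, a beta chain of most cells that bind matrix, rose by 1.87 ± 0.24 (SE), adjusted p = 0.000835 in limma.

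The dimmer Itga4 probe read -5.18, -4.58 and -4.96 in KC, where no array was well above background, and -3.50, -4.00 and -4.65 in KCS. The groups overlapped, no fold can be given, and its adjusted p was 0.0625 when every probe was tested.

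Itgb7 encodes the beta chain that takes lymphocytes to the gut and, with Itgae, holds them to epithelium. Its 2 probes went in opposite directions. The brighter read 5.83, 4.87 and 4.74 in KC and 4.31, 3.44 and 3.13 in KCS, so every KCS array lay below every KC array by at least 0.43. The log2 fold change was -1.52 ± 0.42 (SE), adjusted p = 0.0186 in limma, the same on both slides at -1.52, and it turned to 1.36 (adjusted p = 0.0313) under the spike-in scaling. The call was lost under median centring, with an adjusted p of 0.0586. It was also lost without KCS replicate 2 and without KCS replicate 3, with adjusted p of 0.0615 and 0.0524.

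The dimmer Itgb7 probe read -2.97, -2.13 and -3.18 in KC, with 1 of 3 arrays well above background, and 0.41, -0.38 and 0.91 in KCS. It was higher in KCS on every array, by 3.07 ± 0.41 (SE), adjusted p = 0.00107 when every probe was tested on its own in limma, where 26.8% of all rows were higher and 32.3% lower. The 2 probes shifted against each other by -4.59, exact two-sided permutation p = 0.1, the smallest possible, and this shift does not depend on the scaling, though 2 of the 3 KC values of the dimmer probe were dim. The mean of the probes changed by 0.78, adjusted p = 0.0573. Among the 5831 genes with several tested probes, 241 (4.13%) likewise had 1 probe called higher and another called lower. Which transcripts each probe reads was not examined, so the direction of Itgb7 is not settled. The same limit holds for the sizes given for Itgam, Itgax and Itga4, whose probes also differed (6.95 and 2.21 for Itgax, 4.23 and 0.86 for Itga4).

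Itgae encodes CD103, the alpha chain of lymphocytes within epithelia and of some dendritic cells. Its probe was dim on all 3 KC arrays, at -5.14, -5.12 and -4.93, and read -1.49, -1.57 and -1.48 in KCS. The 3 KCS arrays were within an SD of 0.05, the tightest of the tested integrin genes. KCS was at least 2.86-fold higher. The fitted log2 difference, from KC values not above background, was 3.55, adjusted p = 7.08e-05 in limma. It turned to -0.21 (adjusted p = 0.0751) with the normexp correction and its offset of 50. In scanner units the probe read 1.88 to 2.01 in KC and 124 to 143 in KCS.

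**Figure D2:**
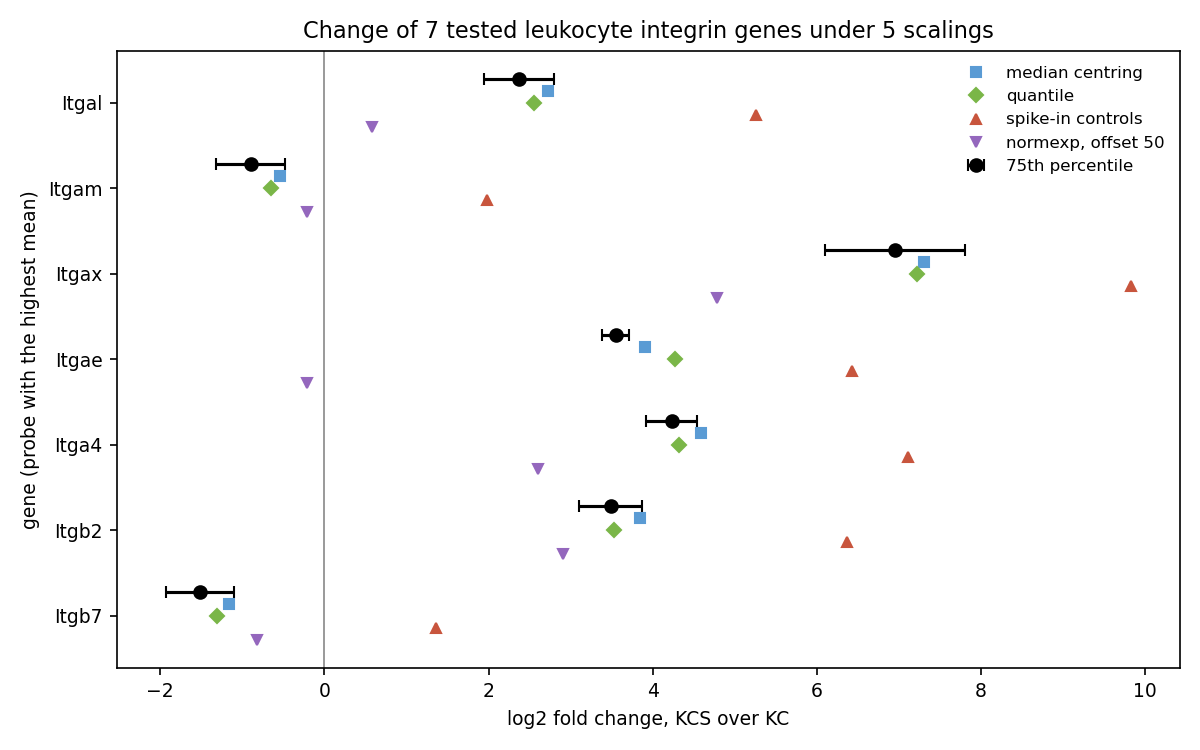
Log2 fold change, KCS over KC, of the 7 tested leukocyte integrin genes under 5 ways of processing the signal. The black point is the 75th percentile scaling with its standard error. Itgax, Itga4, Itgb2 and Itgal lie above 0 under all 5, Itgam and Itgb7 cross to 1.98 and 1.36 under the spike-in scaling, and Itgae crosses to -0.21 with normexp.

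Within KCS the arrays were not alike. Replicate 3, which kept the most acinar signal, was the lowest KCS array for Itgal, Itgax, Itga4, Itgb2 and the brighter Itgb7 probe, 5 of the 7 tested genes. It was the highest for Itgam, Itgae and the dimmer Itgb7 probe. Over all rows replicate 3 was the lowest KCS array in 37.1%, and in 56.3% of the rows called higher. The part of remaining acinar RNA in these differences was not tested. When each of the 6 arrays was left out in turn, 5 genes were called higher in each case.

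The change of each integrin was next set against that of 6 genes carried by nearly all leukocytes (Ptprc, Laptm5, Coro1a, Cd53, Cd52 and Cd48), on the same array, a measure on which the scaling has no effect. All 6 were higher in KCS, with a median of 4.30 and a summed level of 5.14 to 9.65 in KC and 91.7 to 188 in KCS. Ptprc, the CD45 gene, rose by 4.53 ± 0.40 (SE), adjusted p = 0.000248 in limma. Relative to the mean of these genes, the brighter Itga4 probe moved by -0.17 from KC to KCS. Itgb2 moved by -0.91 and Itgal by -2.03. The brighter Itgax probe moved up by 2.55, the 1 upward shift of the 8 probes compared this way. The brighter Itgam probe moved by -5.30 and the brighter Itgb7 probe by -5.92, while the dimmer Itgb7 probe moved by -1.33. In each of these 7 cases the groups did not overlap, and the exact two-sided permutation p was 0.1, the smallest possible with 3 arrays against 3, or 0.12 adjusted over the 12 differences computed. Itgae moved by -0.85 and its groups overlapped, exact permutation p = 0.2. How many of all rows are free of overlap on this measure was not counted. The median row changed by -0.19 and the reference genes by a median of 4.30. A row with no particular change thus also falls on this measure, so a downward shift is not particular to an integrin. On the first and second slide the shift was 3.77 and 1.94 for Itgax, -5.35 and -5.27 for Itgam, and -0.33 and -0.09 for Itga4. Dim KC values enter all 8 shifts, since Cd53, 1 of the 6 reference genes, was dim on all 3 KC arrays. For Itgae, Itgax, Itgal and the dimmer Itgb7 probe, dim KC values of the integrin enter as well. The dimmer probes of Itgam, Itgax and Itga4, each dim on every KC array, were not compared this way. Their log2 differences were -0.41, 2.21 and 0.86, each below the median of 4.30 of the reference genes. The shifts given for Itgam, Itgax and Itga4 thus hold for their brighter probes only.

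**Figure D3:**
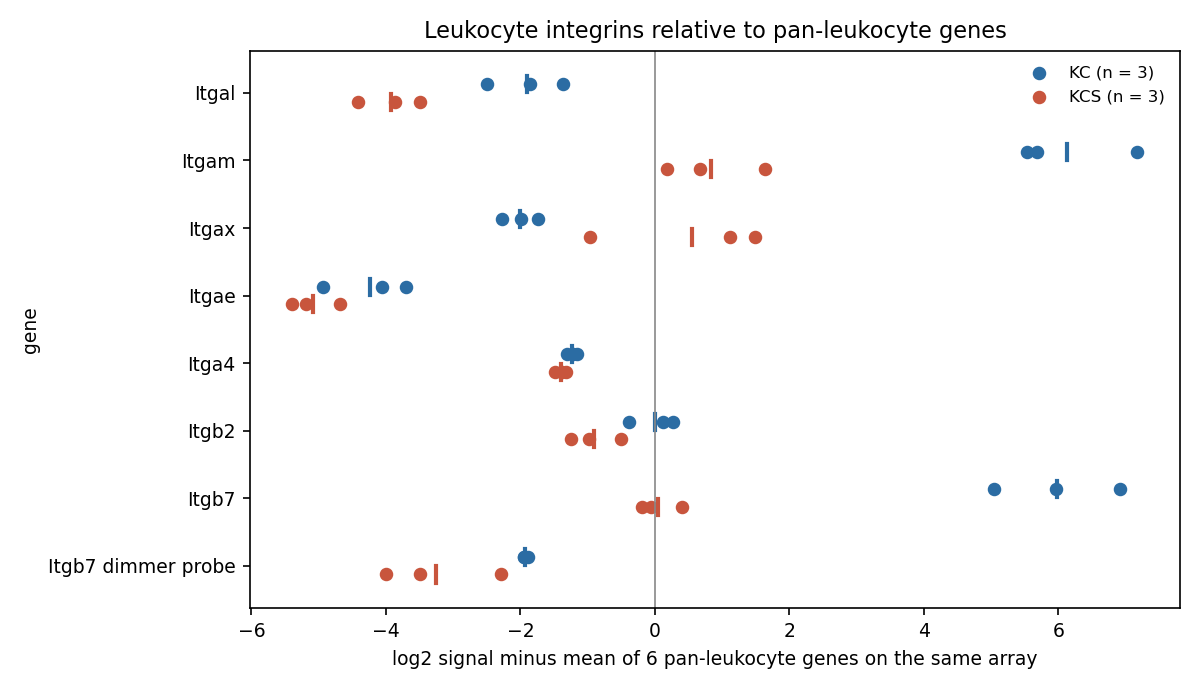
Log2 signal of 8 integrin probes minus the mean of 6 pan-leukocyte genes on the same array, for 3 KC and 3 KCS arrays, with bars at the group means. A shift between the colours is a change relative to those genes, while the place along the axis also carries probe brightness. The brighter probes moved by -0.17 for Itga4, 2.55 for Itgax, -5.30 for Itgam and -5.92 for Itgb7. The dimmer Itga4, Itgax and Itgam probes are not shown.

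Subunits of 1 receptor were compared in the same way, by the brighter probe where a gene had more than 1, save for Itgb7. The difference of Itgax and Itgb2 rose from -2.01 ± 0.61 (SD, n = 3) in KC to 1.46 ± 1.02 in KCS, and that of Itgal and Itgb2 went from -1.91 ± 0.25 to -3.02 ± 0.14. Itga4 gained 2.36 over Itgb1. In these 3 pairs the groups did not overlap, exact permutation p = 0.1, the smallest possible. Of the KC values of Itgax and Itgal in these pairs, 2 of 3 and 1 of 3 were dim. The difference of Itgae and the dimmer Itgb7 probe changed by 0.48 and its groups overlapped, exact permutation p = 0.5. Itgae was dim on all KC arrays. Itgam and Itgb2 were not compared, and the share of all gene pairs without overlap was not counted.

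Other integrin subunits gave a frame for these changes. Of 19 such genes 16 were tested, and 13 were higher and 0 lower in KCS, with a median of 2.03. Over all rows 25.9% were higher and 34.4% lower, the shares to set beside each list below. Itgb3, which pairs with the alpha-v chain, rose by 5.21 ± 0.44 (SE) and Itgb5 by 3.54 ± 0.25, adjusted p = 0.000223 and 0.000149 in limma. The fibronectin receptor chain Itga5 rose by 3.06 ± 0.20 and Itgav by 2.99 ± 0.20. List medians on the first and second slide were 2.06 and 2.12 for these subunits, 2.53 and 2.42 for the ligands, 2.92 and 2.07 for the activation genes, 4.46 and 4.12 for the signalling genes and 3.23 and 2.84 for the transcription factors.

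The ligands and counter-receptors were mostly higher as well, 15 of 16 tested genes of 18, with 0 lower and a median of 2.46. Icam1, the main ligand of the Itgal and Itgam receptors, rose from -0.39 ± 0.22 (SD, n = 3) in KC to 3.36 ± 0.23 in KCS, a log2 fold change of 3.75 ± 0.21 (SE), adjusted p = 8.93e-05 in limma. Icam2, the ICAM of resting endothelium, rose by 1.32 ± 0.21. Vcam1, the ligand of the Itga4 receptors on inflamed endothelium, rose by 5.08 ± 0.37, adjusted p = 0.000155. Fn1, the fibronectin that VLA-4 also binds, rose by 4.03 ± 0.34. Madcam1, the gut ligand of the Itga4 and Itgb7 pair, was dim on all KC arrays and its KCS level at least 1.87-fold higher, but its log2 difference was -0.36 with normexp. Cdh1, the E-cadherin that the Itgae and Itgb7 pair binds, rose by 1.03 ± 0.28, adjusted p = 0.0174, and lost the call without KC replicate 1 (adjusted p = 0.051) and without KCS replicate 2 (adjusted p = 0.0556).

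Of 14 genes that switch integrins on from inside the cell, 12 were higher and 0 lower, with a median of 2.53. Fermt3, the kindlin of blood cells, was dim on all KC arrays, and KCS was at least 19.6-fold higher, adjusted p = 6.99e-05 in limma. Tln1, the talin that most cells have, rose by 1.95 ± 0.17 (SE). Rasgrp1, which activates the small GTPases ahead of integrins in lymphocytes, was at least 21.7-fold higher. The adaptors Apbb1ip (RIAM), Fyb (ADAP) and Lcp2 (SLP-76) rose by 4.03 ± 0.27, 4.05 ± 0.18 and 4.77 ± 0.24.

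Of 15 genes that carry signals from ligated integrins inward, 14 were higher, with a median of 4.23. Fgr, a Src family kinase of myeloid cells, was at least 21.6-fold higher, adjusted p = 8.55e-05 in limma. Vav1, a signalling protein of blood cells, rose by 4.35 ± 0.24 (SE). Lyn, another Src family kinase, was the 1 gene that fell, and is named for that after its value was seen. It fell by 1.27 on the log2 scale with an adjusted p of 0.00771, but turned to 1.61 under the spike-in scaling. Among 7 selectins and their partners 4 were higher and 2 lower, with a median of 1.53 that turned to -0.77 with normexp. Selplg, the selectin ligand PSGL-1, rose by 4.39 ± 0.34 and Cd44, a hyaluronan receptor, by 5.54 ± 0.26. The brighter probe of the sialyltransferase gene St3gal4 fell by 4.73 on the log2 scale, but another probe of it was higher, by 1.96.

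Transcription factors known to act on leukocyte integrin genes made a list of 12, each gene tested singly. Of these 11 were higher and 0 lower, with a median of 2.97, where 25.9% of all rows were higher. Spi1 encodes PU.1, the myeloid factor that binds the Itgam promoter. It was dim on all KC arrays, and KCS was at least 4.21-fold higher, adjusted p = 8.17e-05 in limma. With normexp its log2 difference was 0.28, adjusted p = 0.104, which did not pass. Runx1 rose from -2.73 ± 0.19 (SD, n = 3) to 4.23 ± 0.32, a log2 fold change of 6.96 ± 0.23 (SE), adjusted p = 3.95e-05. Runx3, which acts on Itgae in T cells, was at least 6.05-fold higher by its brighter probe, while another probe of it read -0.27. Quantile normalization, in which the probe standing for a gene was chosen anew, gave 0.06, adjusted p = 0.887. That value may come from the other probe, which was not checked. Irf8 rose by 4.67 ± 0.24.

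Promoter sequences were at hand for 4 of the 8 genes, Itgam, Itgax, Itga4 and Itgb7, from RefSeq on GRCm38.p6. The core letters GAGGAA of PU.1 and TGTGGT of the RUNX factors were searched on both strands of the 250 bases before the start. In these 4 promoters no match of one core overlapped a match of the other. Printed here are 3 of them, with matches in capitals (the reverse complements read TTCCTC and ACCACA). They were picked because, by the brighter probes, Itgam and Itgax are neighbours that moved differently and Itga4 moved with the leukocyte genes. They lie at chr7:128062390-128062639 for Itgam, chr7:128129300-128129549 for Itgax and chr2:79255176-79255425 for Itga4, all on the + strand.
Itgam: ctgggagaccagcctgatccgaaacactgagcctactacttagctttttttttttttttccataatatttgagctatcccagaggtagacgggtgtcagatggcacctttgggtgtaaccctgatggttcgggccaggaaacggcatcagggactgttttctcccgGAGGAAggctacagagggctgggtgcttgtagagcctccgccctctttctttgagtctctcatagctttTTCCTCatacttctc
Itgax: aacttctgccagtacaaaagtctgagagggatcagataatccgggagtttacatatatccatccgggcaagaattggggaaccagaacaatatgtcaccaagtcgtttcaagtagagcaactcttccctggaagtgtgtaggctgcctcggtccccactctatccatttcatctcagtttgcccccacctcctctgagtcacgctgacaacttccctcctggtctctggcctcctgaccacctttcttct
Itga4: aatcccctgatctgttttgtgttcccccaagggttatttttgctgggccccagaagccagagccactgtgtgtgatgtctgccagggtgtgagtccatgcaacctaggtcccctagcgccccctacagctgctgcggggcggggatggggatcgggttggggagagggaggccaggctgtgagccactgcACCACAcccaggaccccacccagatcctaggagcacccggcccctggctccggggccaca
Itgam held 2 matches to the PU.1 core, 1 forward at 84 bases and 1 reverse at 15 bases before the start, and no RUNX core. Itga4 held 1 RUNX core, reverse, at 60 bases before the start, and no PU.1 core. Itgax and Itgb7 held neither of these exact runs, and shorter or variant forms of the sites were not searched. Of 32851 promoters of the same length, 23.3% held the PU.1 core, 3.54% held it 2 or more times, and 14% held the RUNX core, 3.21% having both. A match is a run of letters and not a measured site.

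Markers of the leukocytes that carry these integrins moved in different ways, and their part in the integrin changes was not tested. Of 16 macrophage and monocyte genes 15 were higher, with a median of 3.89 and a summed level of 54.1 to 76.4 in KC and 514 to 617 in KCS. Adgre1, the F4/80 gene, rose by 3.89 ± 0.35 (SE), adjusted p = 0.000281 in limma, and by 1.504 by its other probe. Csf1r, the receptor for the macrophage growth factor, rose by 3.01 ± 0.26, while another probe of it read -0.23. Itgam, which macrophages are known to carry, differed by -0.90 by its brighter probe on the same arrays.

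Of 10 tested neutrophil genes 6 were higher and 1 lower. Their median was 2.94, or 0.013 with normexp, while their summed level was 148 to 245 in KC and 98.0 to 114 in KCS. That sum was carried by the 1 lower gene, Csf3r, the G-CSF receptor, named after its values were seen. Csf3r read 7.17, 7.61 and 7.92 in KC and 6.13, 6.41 and 6.46 in KCS, and its log2 fold change of -1.23 turned to 1.65 under the spike-in scaling. S100a8, a calcium-binding protein of neutrophils and monocytes, rose by 6.03 ± 0.69 (SE) and Ly6g, a surface marker of mouse neutrophils, by 3.13 ± 0.38. Of 8 tested dendritic cell genes 5 were higher and 1 lower, with a median of 2.04 that turned to -0.38 with normexp and a summed level of 270 to 331 in KC and 91.8 to 136 in KCS. That sum was carried by the 1 lower gene, Siglech, a marker of plasmacytoid dendritic cells, which read 8.06, 8.22 and 8.36 in KC and 6.72, 6.16 and 6.39 in KCS and was at 1.09 under the spike-in scaling. Flt3, the receptor of dendritic cell precursors, was at least 1.96-fold higher, and its log2 difference was -0.47 with normexp.

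Lymphocyte markers gave no single direction, and their counts stand beside 25.9% of all rows higher and 34.4% lower. Of 11 tested T cell genes 6 were higher and 5 lower, with a median of 1.91 that turned to -0.53 with normexp and a summed level of 38.3 to 70.6 in KC and 8.27 to 21.6 in KCS. The largest part of that sum in KC was Cd247, a lower gene, at 5.60, 4.79 and 4.67 in replicates 1 to 3. Its change of -2.87 was 0.013 under the spike-in scaling, and -0.63 by another probe. Another probe of Cd3d, also called lower and named after its values were seen, read 3.54. Cd3e, part of the T cell receptor complex, fell by 2.16 on the log2 scale, adjusted p = 0.0155 in limma, but was at 0.71 under the spike-in scaling. Its other probe read -4.66. The call of Cd3e was lost without KCS replicate 2 (adjusted p = 0.0503), where 2 T cell genes were lower, and 3 were without KC replicate 2, KC replicate 3 or KCS replicate 3. Of 6 tested NK cell genes 2 were higher and 2 lower, with summed levels of 1.66 to 3.02 in KC and 0.914 to 3.40 in KCS, and the NK receptor gene Ncr1 did not pass the filter. Of 6 tested B cell genes 1 was higher and 1 lower, with summed levels of 0.634 to 0.870 and 0.790 to 2.77.

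Of 5 tested mast cell genes 2 were higher and 2 lower, beside 25.9% and 34.4% of all rows. Their summed levels were 3.79 to 4.90 in KC and 1.55 to 2.45 in KCS. Of 2 tested eosinophil genes 1 was higher, with summed levels of 0.154 to 0.323 and 1.01 to 2.38. Among platelet genes, which mark another blood lineage, 2 of 4 were higher, with summed levels of 2.40 to 4.63 and 5.87 to 12.8. Of the other cell types, 7 of 7 fibroblast genes, 5 of 6 endothelial genes and 4 of 7 ductal genes were higher and 0 lower. Their medians were 3.11, 1.15 and 1.21. Without KCS replicate 1 or KCS replicate 2, 3 endothelial genes were higher. Leaving out 1 array moved the counts of lymphocyte, mast cell, neutrophil and platelet genes, which ran from 1 to 3 NK cell genes higher, 1 to 2 B cell genes higher, 0 to 2 mast cell genes higher, 1 to 2 neutrophil genes lower and 1 to 2 platelet genes higher. The fibroblast sum was 195 to 258 in KC and 1035 to 1289 in KCS, the endothelial sum 12.1 to 14.9 and 23.3 to 56.5, and the ductal sum 344 to 387 and 398 to 714.

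**Figure D4:**
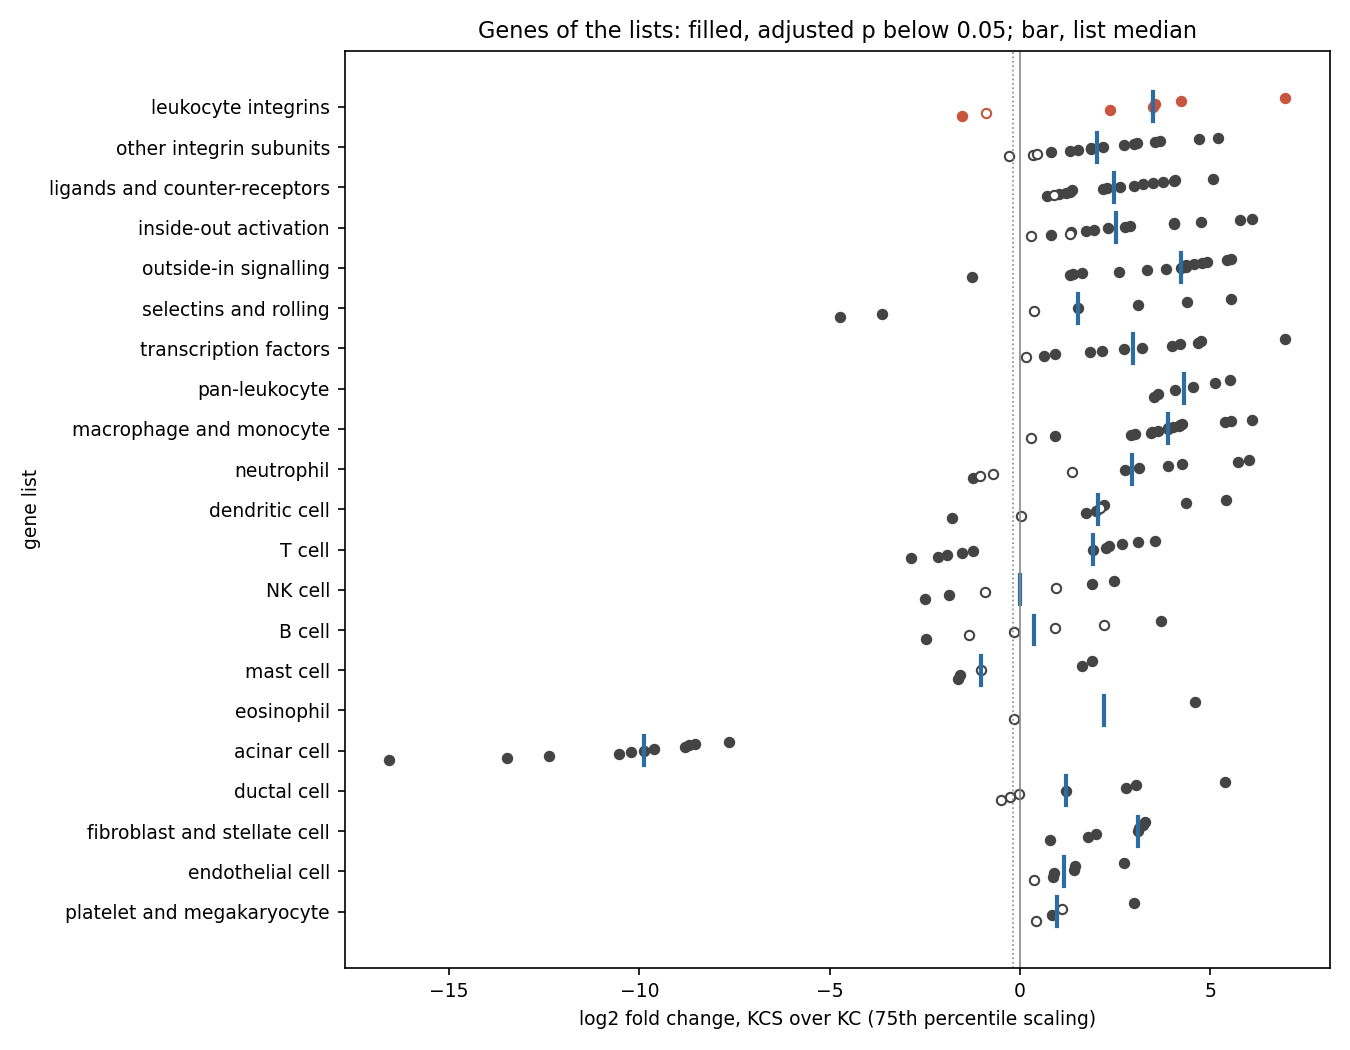
Log2 fold change, KCS over KC, of each tested gene of the integrin, pathway and marker lists under the 75th percentile scaling. Filled points pass an adjusted p of 0.05, bars are list medians and the dotted line is the median of all rows at -0.19. Pan-leukocyte, macrophage and signalling genes lie mostly above 0, lymphocyte genes lie on both sides, and the spike-in scaling would move every point up by 2.88.

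The genes nearest in pattern to each integrin were named by the root mean square distance of their centred values over the 6 arrays, among 16262 tested genes. For Itgax they were Gpr171, Clec4n, Pkp1, Scimp and Csf2rb2, the first at a distance of 0.47 log2 units. For Itga4 they were Tbxas1, Pygl, Themis2, Igsf6 and Ubash3b. For Itgb2 they were Arxes2, Gngt2, Fpr2, Pdgfrb and Arhgap25. For Itgal they were Avpr1a, Nbl1, Matk, Dchs1 and Neurl1a, and for Itgae Emilin3, Socs3, Prtn3, Bdnf and Flacc1. Itgam was nearest to Snap23, Pdzrn3, Rmi1, Zfp764 and Herc2, at a first distance of 0.04, and Itgb7 to Suv39h2, Ogfod1, 4933427D06Rik, Slc1a4 and Zfp791. No integrin was among the first 5 of another. By distance Itgb2 ranked 1135th from Itgal, 344th from Itga4, 532nd from Itgae and 591st from Itgax. A gene with several probes entered by its brightest, so the genes near Itgam and Itgb7 hold for those probes only.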

How the data were processed

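Total RNA was amplified, labelled with Cy3 and hybridised to 1-colour Agilent arrays, per the labels' protocols. The deposited scanner files give each spot's processed signal as an intensity, read with Agilent Feature Extraction 12.0.3.1, per the submitters' processing notes. Of 62976 spots, 3671 were controls. The deposited value table holds log2 values of 36136 probes, centred on each probe's median, which matched the scanner values (r of 0.999999 or above across probes).

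Here log2 processed signals were scaled to each array's 75th percentile, marked outlier spots (88 to 140 an array) were left out, and none was marked as saturated. The filter kept probes that were well above background on 3 or more of the 6 arrays, giving 27102 rows, with the probe of highest mean standing for a gene. Probes were named through accessions in RefSeq GRCm38.p6 (33767 with 1 symbol, 22838 with none). The file headers name another build, so only printed promoters carry coordinates. KCS was compared with KC with limma 3.58.1 in R 4.3.3, two-sided, with Benjamini-Hochberg adjustment, and the script was tested on simulated data. Single differences used exact permutation tests (scipy 1.17.1). The number of arrays, 3 a group, limits the precision. All columns of samples in the value table were matched, and 0 were left unused.

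The members and lists were chosen with earlier results of these data known. The text names all 8 integrins and Setdb1. From each pathway list it draws on up to 6 called genes, and from each marker list on up to 3, with the smallest p, beside genes set by name. Each integrin's 5 nearest genes are given. Some genes that this rule names are not reported here. The alternatives were other scalings, background correction, filters, probe rules, variance models, blocks, the second slide alone and each array left out.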

Additional observations from a re-analysis of the deposited data

How the results depend on the processing

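Of 155 values of the 7 tested integrin genes under alternatives, 138 kept direction and side of the threshold, 5 newly passed, 7 no longer passed and 5 turned. Of 1855 values of other named genes, 1812, 2, 22 and 19 did. Over all rows, the 16345 calls (7016 higher, 9329 lower) became 31883, with 24766 lower, without a filter on dim probes, where 46298 rows were tested. The higher and lower calls were 23628 and 788 under the spike-in scaling, and the lower calls 14894 with normexp. Median centring gave 9151 higher and 7043 lower. Integrin calls fell from 6 to 3 with normexp (3 higher, 0 lower). They were 3 (2 higher, 1 lower) where probes had to be well above background on all arrays, beside 12902 of 19121 rows. Only Itgam, Itga4, Itgb2 and Itgb7 among the integrins passed that filter. The count lower went from 1 to 0 under median centring, the spike-in scaling, normexp and the mean of probes, and to 2 with array weights, the slide block, the replicate block and the second slide alone. Over all 27102 rows, the settings with 2 gave 10057, 9952, 9581 and 8360 lower, in that order. The cause of these shifts was not tested.

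Leaving out 1 array gave 13400 to 15283 calls over all rows (5706 to 6595 higher, 7694 to 8953 lower), and 5 to 7 integrin calls (5 higher each time, 0 to 2 lower). The log2 fold changes ran from 1.997 to 2.81 for Itgal, -1.32 to -0.57 for Itgam, 6.32 to 7.90 for Itgax, 3.51 to 3.62 for Itgae, 4.04 to 4.52 for Itga4, 3.12 to 3.85 for Itgb2 and -1.86 to -1.18 for Itgb7.

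Under the spike-in scaling these turned: Itgam 1.98, Itgb7 1.36, Siglech 1.09, Cd247 0.013, Prf1 0.39, Eomes 1.02, Pax5 0.41, Kit 1.25, Cpa3 1.30 and Cd3e 0.71. Lyn (1.61) and Csf3r (1.65), not counted among the named genes, turned too. With normexp these did: Itgae -0.21, Fut7 -0.77, Flt3 -0.47, Cd3g -0.53, Klrb1c -0.76, Mcpt4 -0.87, Ppbp -0.39, Gp9 -1.37 and Madcam1 -0.36. The mean of probes turned Itgb7 (0.78), and other probes turned Itgb7 (3.07), St3gal4 (1.96), Runx3 (-0.27) and Csf1r (-0.23).

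The replicate numbers were not taken to pair samples: deviations of KC and KCS arrays of 1 number correlated at 0.33, 0.04 and 0.14, and not every array correlated best with its own number. The replicate block gave 16452 calls (6871 higher, 9581 lower), and Itgam passed with an adjusted p of 0.031. Normexp was run on the median signals with an offset of 50, an alternative chosen after seeing the data. The planned normexp on mean signals was not run, as the files used here hold no such column. Dim probes limit Itgad, Itgae and the dimmer probes of Itgam, Itgax and Itga4, which the KC arrays did not measure above background.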
